A study of Rattus norvegicus with 28 samples.

Results

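Rat spinal cords that were contused, received neural progenitor cells (NPCs) right after the contusion and were taken 1 week later (T1_NPC) were compared with cords that had not been injured (T0), to describe which transcript differences from uninjured tissue were present after acute transplantation. The samples were chosen by their labels, 4 T1_NPC and 4 T0, which made 8 of the 28 microarrays of the series. T0 came from adult female Sprague Dawley rats that the labels call sham and the methods call uninjured, and neither says whether a laminectomy was done. T1_NPC came from adult females with a severe contusion of 250 kdyn at thoracic level 8, followed at once by injection of NPCs rostral and caudal to the epicentre. The injected NPCs had been grown as neurospheres from cords of other adult rats taken 1 week after injury. Host and injected cells are both rat, so their transcripts cannot be told apart on these arrays, and neither the number of injected cells left nor a transplant of other cells was measured. Injured cords without NPCs taken at the same time (T1, 4 arrays, cell-free medium injected according to the methods) stand beside them as the reference for the injury alone. Tacrolimus (FK-506, an immunosuppressant) at 1 mg/kg is described from the day before transplantation to the end, in protocol text that stands under every sample, so its use in T0 and T1 is not settled. Each sample was 1.5 cm of cord that held the epicentre, or the matching stretch in T0, without dura.

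After a contusion, neurons and oligodendrocytes die, blood-borne macrophages enter and join resident microglia in clearing debris, astrocytes become reactive, and fibroblast-like cells lay down collagen in the lesion core. Microglia and macrophages take up myelin lipid, lysosomes break it down, and cholesterol is exported or stored. Neural progenitors are immature cells that can divide and give rise to glia, and in the adult cord cells with this property lie around the central canal, where ciliated ependymal cells line it. Cyclic AMP (cAMP), the second messenger that this study followed, is made by adenylate cyclases, read by protein kinase A and by the exchange factor EPAC2 (gene Rapgef4), and broken down by phosphodiesterases.

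Each array held 45018 spots, and the 43379 that were not controls were averaged to 41012 probes and then to 35469 features named by gene. Between 77.4% and 78.7% of spots were well above background on T0 arrays, 79.0% to 81.9% on T1 arrays and 74.5% to 76.4% on T1_NPC arrays, and no spot was saturated. All 22 neuronal and all 26 oligodendrocyte markers found were well above background on all 4 T0 arrays, as were 23 of 24 astrocyte markers. Levels are log2 values of the deposited table, so a difference of 1 is a 2-fold change, and they compare samples within a gene but not genes with each other.

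The assignment of arrays to samples carries a doubt that touches every value. The deposited value table and the deposited scanner outputs disagreed on 16 of the 28 samples, among them all 4 of T1_NPC and replicates 2 and 4 of T0. A column of the table followed 1 scanner output in rank order, with a Spearman correlation of 1, and no other output above 0.993. The table's own sample names were used. The outputs deposited as T0 replicates 2 and 4 matched columns that the table gives to injured cords. These were T1_NPC replicate 2 and an array of an injured group taken later. Which naming is right was not tested. With the scanner outputs under their deposited names instead, limma called 0 features between T1_NPC and T0, with 6412 at an unadjusted p under 0.05, and 0 between T1_NPC and T1, with 857 unadjusted. By the matched outputs, the 4 T1_NPC arrays shared 1 slide in a scan session that held no T0 or T1 array, so slide, session and group cannot be told apart. The T0 arrays lay on 4 slides in 2 other sessions.

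T1_NPC replicate 2 stood apart from the other T1_NPC arrays. Its mean correlation with the rest of its group was 0.971, against 0.979 to 0.982 for the others. On a line through the mean of T0, at 0, and the mean of T1, at 1, the T1_NPC arrays lay at 1.07, 0.74, 0.96 and 1.00, with replicate 2 lowest. Values without it stand beside the results below whose call or size it changed clearly. Nothing in the sources says which samples share a litter or day, so the p-values measure only the spread among the samples at hand. That spread was pooled within the 7 groups of all 28 arrays, so a wider spread in T1_NPC alone enters only in part. Having only 4 arrays in a group limits the precision. In bulk tissue, fewer cells of a type and less RNA per cell cannot be told apart.

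At 1 week, T1_NPC differed widely from T0. A feature was called where limma's p, adjusted by Benjamini and Hochberg over all 35469 features, was below 0.05. Called were 18681 features (52.7%), 8091 higher (22.8%) and 10590 lower (29.9%), and the median change of all features was -0.07. The rises were the larger changes: 588 called features rose and 82 fell by more than 3 on the log2 scale, and 103 rose and 1 fell by more than 5. T1 differed from T0 in 15657 features (44.1%), 6772 higher (19.1%) and 8885 lower (25.1%). Both comparisons use the same T0 arrays, so their values are set side by side below and the difference between them was tested as T1_NPC against T1. That test called 4225 features (11.9%), 1933 higher (5.45%) and 2292 lower (6.46%), and without T1_NPC replicate 2 it called 3018. When arrays were scaled to their 75th percentile in place of quantile normalization, 71.3% of its calls were higher instead of 45.8%, and the median of all features was 0.11 instead of -0.01 (0.04 instead of -0.07 against T0). For 23310 features (65.7%), the 95% interval of the difference between T1_NPC and T1 lay within 1 log2 unit of 0 on both sides.

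Gene lists were described by the number of members called and by their median change, beside the percentages of all features above. The plot of list medians shows inflammatory, matrix and cell cycle lists on the right and synaptic, neuronal and cholesterol lists on the left. Some genes stand on more than 1 list, and calls include members that were not well above background.

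**Figure D1:**
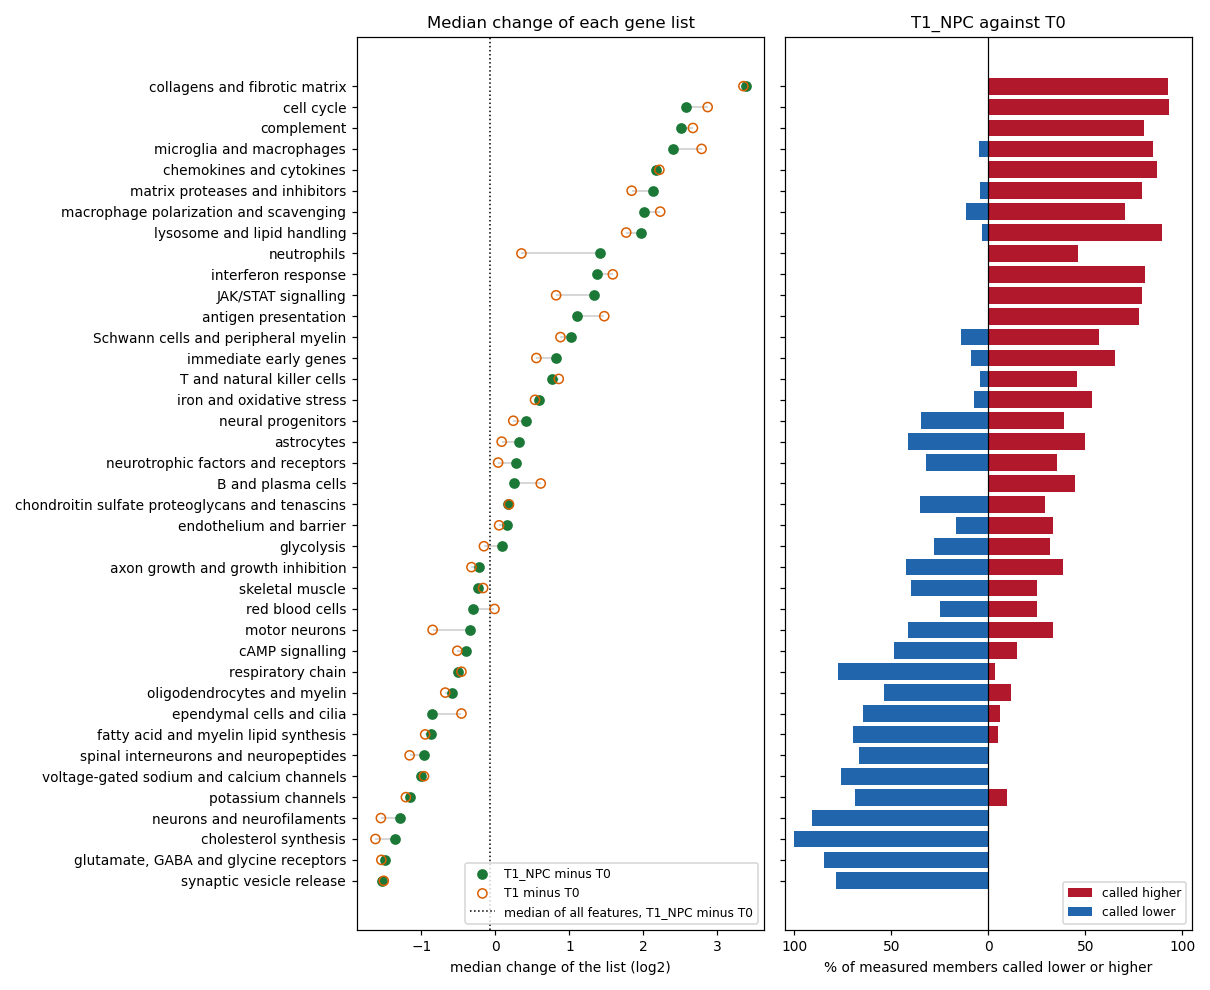
Left, the median log2 change of the measured members of each of 39 gene lists, T1_NPC minus T0 (filled green) and T1 minus T0 (open orange, same T0 arrays), with the median of all features (-0.07) as a dotted line. Right, the percentage of measured members called higher (red) or lower (blue) in T1_NPC against T0. Collagens and fibrotic matrix had the highest median (3.38) and synaptic vesicle release the lowest (-1.54).

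Microglia and macrophage genes rose after injury and acute transplantation. Of 20 found, 17 rose and 1 fell, with a median of 2.40 (T1: 18 rose, median 2.79). Cd68, a glycoprotein of phagocyte lysosomes, stood at 9.47, 9.20, 9.51 and 8.83 in T0, at 16.31, 16.47, 16.01 and 16.41 in T1, and at 16.49, 15.88, 16.43 and 16.45 in T1_NPC. Every T1_NPC array lay above every T0 array, and the rise was 133-fold (log2 7.06, SE 0.16, adjusted p = 3.8e-19). The difference from T1 was 0.01 (95% interval -0.33 to 0.35).

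Gpnmb, a glycoprotein of phagocytes loaded with lipid, stood at 10.64, 10.96, 11.02 and 10.65 in T0 and at 17.99, 16.96, 17.69 and 17.76 in T1_NPC. It rose 110-fold (log2 6.78, SE 0.17, adjusted p = 2.1e-18), with no overlap between the groups, and its difference from T1 was 0.43 (adjusted p = 0.11; 0.65 with adjusted p = 0.009 without T1_NPC replicate 2). Lyz2, the lysozyme of myeloid cells, rose 39.7-fold (log2 5.31, SE 0.20). The genes that mark resting microglia moved less. P2ry12, a purinergic receptor of microglia, and Tmem119 did not pass the test (0.05 and 0.14). Without T1_NPC replicate 2, P2ry12 was called above T0 (0.61, adjusted p = 0.00067), and in T1 it was called higher than in T0 (1.11). Cx3cr1, the fractalkine receptor, rose by 1.37 (2.11 without T1_NPC replicate 2, which lay at 8.12 against 10.87 to 11.22 on the other T1_NPC arrays). Sall1, a transcription factor of microglia that other cord cells also express, was the member that fell (-0.35, SE 0.10, adjusted p = 0.007).

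The 12 largest rises among genes well above background on all 8 arrays ran from 331-fold for RGD1559482 (Igsf7 l1 in RefSeq, an immunoglobulin superfamily gene, log2 8.37) to 60.5-fold for Folr2 (a folate receptor of macrophages, log2 5.92). Between them lay Plbd1 (a phospholipase B domain protein, 8.32), Fcrls (an Fc receptor-like gene, 8.20), Ms4a4a (a tetraspan membrane protein of macrophages, 8.10), Ifitm1 (an interferon-induced membrane protein, 7.56), Hk3 (the hexokinase of myeloid cells, 7.53), Cd68, Klra5 (a killer cell lectin-like receptor, 6.93), Msln (mesothelin, 6.92), Gpnmb and Lst1 (a leukocyte transcript, 5.99). In T1 these 12 genes stood 5.77 to 8.70 above T0, and none of the 12 differed from T1 by the test (adjusted p from 0.11 to 0.98). Fcrls was at 12.17 in T1_NPC replicate 2 and at 15.24 to 16.18 on the other 3 arrays, and its rise was 9.08 without that array.

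Other genes went from below background on all 4 T0 arrays to well above it on all 4 T1_NPC arrays, and for these the rise has only a lower bound. It was at least 166-fold for Msr1 (a macrophage scavenger receptor), 153-fold for Fabp4 (a fatty acid-binding protein), 114-fold for Cd300le (a myeloid receptor of the CD300 family) and 78.8-fold for Mmp7 (matrilysin). The next were LOC689770 (now Clec2d2l2, a C-type lectin, at least 72.3-fold), Crisp1 (now Crisp3, at least 63.8-fold), Siglec1 (a sialic acid-binding receptor of macrophages, at least 59.9-fold) and LOC681325 (at least 52.9-fold). Lilrb4 (an inhibitory leukocyte receptor, at least 44.2-fold), Ankrd33b (at least 44.1-fold) and Vsig4 (a complement receptor of macrophages, at least 40.1-fold) followed. Their adjusted p ran from 1.1e-16 to 7.9e-06. Replicate 2 of T1_NPC moved the bounds of 3 of these genes by over 1.5 times. Siglec1 stood at 11.11, 7.37, 10.43 and 10.80 and its bound was 108-fold without replicate 2. Cd300le stood at 11.35, 9.03, 11.50 and 11.69, with a bound of 176-fold without it. Vsig4 stood at 8.18, 11.68, 10.46 and 7.09, with replicate 2 highest and a bound of 23.5-fold without it.

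**Figure D2:**
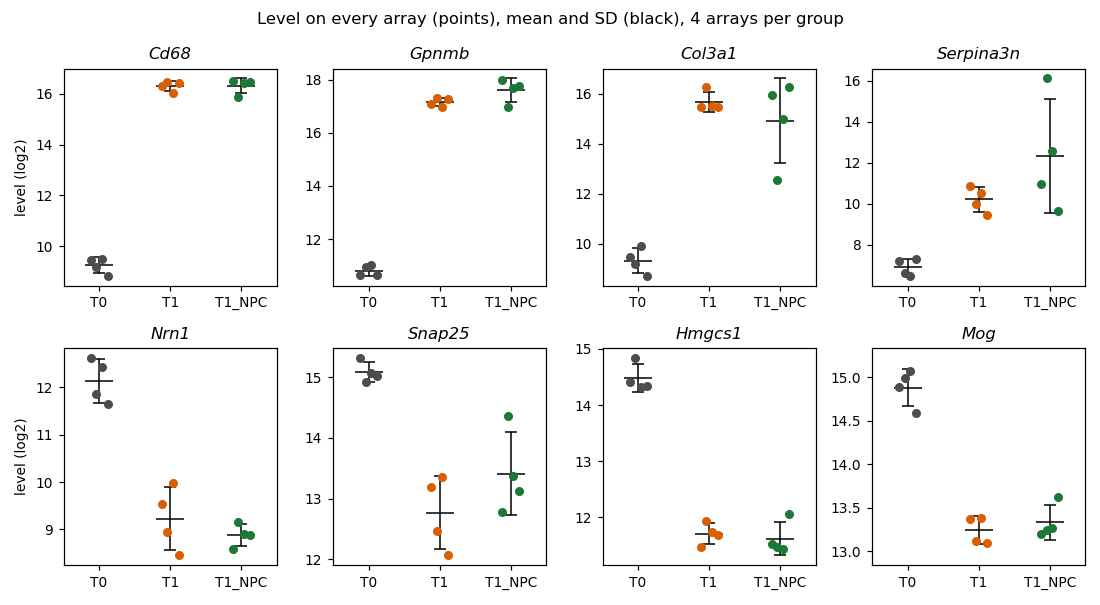
Log2 levels of 8 genes on each T0, T1 and T1_NPC array (points), with the group mean and SD (black, n = 4 per group); each panel has its own axis, which does not start at 0. Cd68, Gpnmb, Col3a1 and Serpina3n were higher and Nrn1, Snap25, Hmgcs1 and Mog lower on every T1_NPC array than on any T0 array, and the highest Serpina3n and lowest Col3a1 of T1_NPC were both replicate 2.

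Genes used to describe macrophage states rose on both sides of the usual division. Of 17 found, 12 rose and 2 fell (median 2.01; T1: 12 and 1, median 2.23), and none fell without T1_NPC replicate 2. Mrc1, the mannose receptor associated with repair, rose 51.8-fold (log2 5.69, SE 0.27), from 5.16, 6.0, 5.96 and 5.55 in T0 to 11.19, 11.98, 11.45 and 10.82 in T1_NPC. It exceeded T1, at 10.37 to 10.62, by 0.86 (adjusted p = 0.040), a call that was lost without T1_NPC replicate 2 (0.65, adjusted p = 0.15). Arg1 (arginase, likewise associated with repair) rose by 1.61 and Cd86 (a co-stimulatory molecule associated with inflammation) by 2.78. Nos2, the inducible nitric oxide synthase, was not well above background on any of the 8 arrays. Cd163, the haemoglobin scavenger receptor, was well above background on 1 T0 array and all T1_NPC arrays, where replicate 2 lay at 10.19 and the others at 6.08 to 7.73.

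Of the neutrophil genes, 6 of 13 rose and none fell (median 1.42; T1: 5 and 0, median 0.35). S100a9, a calcium-binding protein of neutrophils and monocytes, rose by 2.25, and Mmp8, neutrophil collagenase, rose at least 33.6-fold (60.7-fold without T1_NPC replicate 2, which lay at 6.53 against 9.51 to 10.43). Of the defining granule genes, Elane did not pass the test (1.42), and Mpo, 1 of the 6 called, was not well above background on any of the 8 arrays and was not called without T1_NPC replicate 2. Of the T and natural killer cell genes, 10 of 22 rose and 1 fell (median 0.77; T1: 10 and 1). Cd8a and Cd8b, the chains of the CD8 co-receptor, rose by 7.66 and 5.12 and Cd4 by 3.09. Cd8a was well above background on 1 T0 array, so its rise is set against levels mostly below background, and on the T1_NPC arrays it stood at 11.98, 8.65, 12.43 and 12.06. Without replicate 2 Cd8a rose by 8.54 and Cd8b by 5.91, and 13 of the 22 genes rose. Cd3e, a chain of the T cell receptor complex, rose at least 1.16-fold, with 2 of 4 T1_NPC arrays well above background. Among the 9 B and plasma cell genes, 4 rose, and Jchain, the joining chain of antibodies, was below background on all 8 arrays. Cd4 and Cd8a are also made by macrophages in the rat, and the part of each cell type was not tested. With only the T0 arrays of the second scan session, 5 of the 22 T and natural killer cell genes were called higher.

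Genes for antigen presentation, complement and chemokines rose together. For antigen presentation 14 of 18 rose and none fell (median 1.1; T1: 17, median 1.47), and without T1_NPC replicate 2 the number was 17. Tap1, the peptide transporter, rose by 3.36, and Cd74, the invariant chain, did not pass the test (0.34). For complement 16 of 20 rose and none fell (median 2.51; T1: 16 and 1, median 2.67). Cfd, complement factor D, lay between 9.11 and 10.02 in T0 and between 14.62 and 14.84 in T1_NPC, a rise of 38.8-fold (log2 5.28, SE 0.18, adjusted p = 2.1e-16), with all 4 transplanted arrays close together. C1qc, a chain of the C1q recognition molecule, rose by 4.20. C3, the central component, stood at 14.89, 11.45, 12.89 and 14.93 in T1_NPC and was not called (-0.47, or 0.23 without replicate 2).

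Of 31 chemokines, cytokines and their receptors, 27 rose and none fell (median 2.17; T1: 27 and 0, median 2.22). Ccl2, which attracts monocytes, rose 40.9-fold (log2 5.35, SE 0.34), from 6.86 to 7.97 in T0 to 12.05 to 13.20 in T1_NPC. Ccl7, a related monocyte attractant, rose by 6.92, set against T0 levels that were well above background on 1 array only. Ccl3, a chemokine of macrophages, rose by 4.44 and was lower than in T1 by the test (-0.56, adjusted p = 0.023; -0.52 with adjusted p = 0.059 without T1_NPC replicate 2). Il10, an anti-inflammatory cytokine, was below background on all T0 arrays and on 2 of 4 T1_NPC arrays and rose at least 1.94-fold (1.29-fold without T1_NPC replicate 2), with 6.76 in T1_NPC replicate 2 against 4.10 to 4.93 on the other 3 arrays. Tnf and Ccl5 did not pass the test.

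Of 21 interferon-responsive genes, 17 rose and none fell (median 1.38; T1: 18, median 1.59). Mx1, an antiviral GTPase, rose by 4.00 (SE 0.65), with 9.71, 6.21, 8.06 and 9.69 in T1_NPC against 4.26 to 4.73 in T0, and by 4.73 without replicate 2. Ifit3, an interferon-induced protein, rose by 3.00 (SE 0.55), with 7.52, 6.14, 6.28 and 7.71 against 2.90 to 4.46. Both had their lowest T1_NPC level in replicate 2, and both were well above background on 2 of the 4 T0 arrays. The stretch of 250 bases before the RefSeq start of Ifit3 (assembly GRCr8, chr1:241527076-241527325, plus strand) is printed because it holds the interferon-stimulated response element, the motif that STAT and IRF factors bind, in capitals. The motif was searched on both strands as 2 copies of GAAA with any 2 bases between them, and it reads here as its reverse complement.

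Ifit3: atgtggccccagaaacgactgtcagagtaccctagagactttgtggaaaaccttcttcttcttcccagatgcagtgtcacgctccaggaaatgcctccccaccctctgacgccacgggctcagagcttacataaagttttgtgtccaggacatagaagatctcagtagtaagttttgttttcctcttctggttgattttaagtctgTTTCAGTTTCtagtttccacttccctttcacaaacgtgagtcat

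Of 14 interferon genes with a promoter in the RefSeq table, 9 (64.3%) held a match, against 1140 (3.41%) of 33469 promoters of the same length. Those with a match were Gbp2, Ifi27, Ifi44, Ifit3, Ifitm3, Irf7, Isg20, Oas1a and Rsad2, and of these Ifi27 and Isg20 were not called in T1_NPC against T0. Mx1 and Oasl, which with Ifit3 had the largest rises among those with a promoter in the table, held no match in this window. A match is a description of letters and was not tested for binding.

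Collagens and other genes of the fibrotic matrix made up the list with the highest median. Of 27 found, 25 rose and none fell (median 3.38; T1: 26 and 0, median 3.35), and 24 of the 27 did not overlap between T1_NPC and T0, against 42.4% of all features. Col3a1, a fibrillar collagen of scars, stood at 9.48, 9.19, 9.92 and 8.73 in T0, at 15.46, 16.27, 15.49 and 15.49 in T1 and at 15.94, 12.54, 14.98 and 16.25 in T1_NPC. It rose 48.4-fold (log2 5.60, SE 0.50, adjusted p = 2.7e-09), and by 6.39 without T1_NPC replicate 2, the lowest array. Postn, periostin, rose by 6.05, Lox, the enzyme that cross-links collagen, by 5.86 and Fn1, fibronectin, by 4.25. Col4a1, a basement membrane collagen, was not called, and its probes went opposite ways.

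Of 24 matrix proteases and their inhibitors, 19 rose and 1 fell (median 2.13; T1: 16 and 1, median 1.84). Mmp12, macrophage elastase, was well above background on 1 of 4 T0 arrays and stood at 12.86, 9.07, 11.11 and 12.80 in T1_NPC, lowest in replicate 2. Plau, urokinase, and Plaur, its receptor, rose by 6.44 and 6.04, and Timp1, an inhibitor of metalloproteases, by 4.18. Timp4, an inhibitor found in healthy cord, was the member that fell (-0.89). Chondroitin sulfate proteoglycans and tenascins, which include inhibitors of axon growth and parts of perineuronal nets, split in both directions. Of 17 found, 5 rose and 6 fell (T1: 6 and 5), beside 22.8% and 29.9% of all features. Tnc, tenascin C, rose by 4.11 and Vcan, versican, by 1.54. Hapln1, a link protein of perineuronal nets, fell by 2.38 and Acan, aggrecan, fell by 1.18. The number that fell was 3 without T1_NPC replicate 1.

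Lysosomal and lipid-handling genes rose in 26 of 29 cases and fell in 1 (median 1.97; T1: 25 and 1, median 1.77). Abca1, which exports cholesterol from cells, rose by 5.25, Ctsk, cathepsin K, by 5.44, and Spp1, osteopontin, by 3.44. Plin2, a coat protein of lipid droplets, rose from 11.30 to 11.63 in T0 to 14.19 to 14.87 in T1_NPC (3.13, SE 0.17), 0.54 above T1 (adjusted p = 0.038). Ctsd, cathepsin D, rose less than in T1 (0.96 against 1.40, difference -0.43, adjusted p = 0.0025). Of 28 genes of iron handling and oxidative stress, 15 rose and 2 fell, or 18 and 4 without T1_NPC replicate 2. Hmox1, the enzyme that opens haem, rose 31.5-fold (log2 4.98), and Cybb, part of the phagocyte oxidase, rose by 5.31 from being well above background on only 2 of the T0 arrays. Gclm, a subunit of the enzyme that starts glutathione synthesis, fell by 1.56, to 3.94, 4.71, 4.81 and 4.56 from 5.86 to 6.26. It was lower than in T1, at 5.49 to 6.01, by 1.15 (log2 difference -1.15, adjusted p = 0.00092).

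Cell cycle genes rose in 27 of 29 cases and none fell (median 2.58; T1: 28 and 0, median 2.87). Mki67, the marker of dividing cells, rose 18.3-fold (log2 4.19, SE 0.26), from 6.56, 7.16, 5.92 and 6.18 to 11.33, 10.05, 11.06 and 10.16, without overlap. Ccnb2, a mitotic cyclin, rose by 4.45 and Top2a, a topoisomerase of dividing cells, by 3.95. The difference from T1 was -0.15 for Mki67 (95% interval -0.68 to 0.39). Birc5 and Tyms were lower than in T1 (-0.71 and -0.61), and neither was called without T1_NPC replicate 2.

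Astrocyte genes moved in both directions, 12 of 24 up and 10 down (median 0.31; T1: 11 and 8). Vim, vimentin, rose 25.2-fold (log2 4.65, SE 0.23) and Gfap, the astrocyte filament, rose by 0.81 (SE 0.29), with its groups overlapping. Serpina3n, a protease inhibitor of reactive astrocytes, stood at 7.22, 6.62, 6.49 and 7.32 in T0 and at 10.97, 16.12, 12.57 and 9.65 in T1_NPC. Its rise of 5.41 became 4.15 without replicate 2, the highest array. The 4 largest of the 10 falls were those of Gjb6, connexin 30 (-2.55), Kcnj10, the potassium channel Kir4.1 (-1.50), Aqp4, the water channel (-1.34, or -0.98 without T1_NPC replicate 2) and Aldoc, an aldolase of astrocytes (-1.10).

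Neural progenitor genes, to which injected cells that stayed progenitors could add, likewise split, with 9 of 23 higher and 8 lower (median 0.41; T1: 9 and 7). Of all features, 22.8% were called higher and 29.9% lower. What the injected cells had become after 1 week was not measured. Nes, nestin, stood at 9.97, 9.66, 9.91 and 10.01 in T0, at 11.86 to 12.25 in T1 and at 12.58, 12.21, 12.69 and 12.33 in T1_NPC. It rose by 2.57 (SE 0.13), and its difference from T1 was 0.33 (95% interval 0.06 to 0.60, adjusted p = 0.096). Sox2, a transcription factor of neural stem cells, rose by 0.53 and differed from T1 by 0.29 (95% interval 0.01 to 0.56, adjusted p = 0.16). Hes5, a Notch target, fell by 1.48 and Dcx, doublecortin of migrating neuroblasts, fell by 1.19. No member of the list differed from T1 by the test. For 20 of the 23 the 95% interval of that difference lay within 1 log2 unit of 0 on both sides, against 65.7% of all features.

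Ependymal and cilia genes were lower, 11 of 17, with 1 higher (median -0.85; T1: 8 and 0, median -0.46). Foxj1, the transcription factor that directs motile cilia, stood at 12.70, 12.62, 12.78 and 12.76 in T0, at 12.73, 12.56, 12.83 and 12.63 in T1 and at 12.19, 11.29, 12.16 and 12.39 in T1_NPC. All 4 transplanted arrays lay below all 8 of the others. The fall from T0 was 0.71 (log2 change -0.71, SE 0.16, adjusted p = 0.00091) and the difference from T1 was -0.68 (adjusted p = 0.0091; -0.44 with adjusted p = 0.024 without T1_NPC replicate 2). Hydin and Spag6l, parts of the ciliary axoneme, were not well above background on any T1_NPC array and were called lower against both T0 and T1. The dimmest probe well above background lay at 3.30 to 4.49, depending on the array. Without replicate 2, Hydin averaged 1.79 in T1_NPC, with changes of -1.82 from T0 and -1.52 from T1. Its T0 and T1 levels thus also lay near that limit, and the size of its fall is not known. Spag6l was at least 1.29-fold lower than in T0, and its call against T1 was lost without T1_NPC replicate 2.

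Oligodendrocyte and myelin genes were mostly lower, 14 of 26, with 3 higher (median -0.59; T1: 19 and 2, median -0.68). Mog, a surface protein of mature myelin, stood at 14.88, 14.99, 15.07 and 14.59 in T0 and at 13.19, 13.24, 13.26 and 13.62 in T1_NPC. The groups did not overlap, and the fall was 2.93-fold (log2 -1.55, SE 0.15, adjusted p = 8.9e-09). Ugt8, the enzyme that makes the myelin lipid galactosylceramide, fell 6.09-fold (log2 -2.61). Mbp, myelin basic protein, was not called (0.12, with its probes in opposite directions). Pdgfra, the marker of oligodendrocyte precursors, rose by 0.89. Bcas1, an early myelinating gene, was the 1 member above T1 by the test (0.45), and that call was lost without T1_NPC replicate 2. Of the Schwann cell and peripheral myelin genes, 8 of 14 rose and 2 fell (T1: 8 and 4). Whether nerve roots were dissected with the cord was not tested.

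All 26 cholesterol synthesis genes found were lower in T1_NPC than in T0 by the test (median -1.36; T1: 25 of 26, median -1.62), where 29.9% of all features were called lower. In all 26 the 4 T1_NPC arrays lay below the 4 T0 arrays, where 42.4% of all features had no overlap between these groups in either direction. Hmgcs1, an early synthase of the pathway, stood at 14.42, 14.84, 14.32 and 14.35 in T0, at 11.47, 11.94, 11.74 and 11.69 in T1 and at 11.53, 11.47, 11.44 and 12.07 in T1_NPC. It fell 7.25-fold (log2 -2.86, SE 0.20, adjusted p = 6.3e-11), the largest fall of the list, and differed from T1 by -0.09. Tm7sf2, a sterol reductase, fell 7.24-fold and Idi1, an isomerase of the isoprene units, fell 5.41-fold (log2 -2.43). Sqle, squalene epoxidase, fell by 1.58, and Srebf2, the transcription factor that drives these genes, fell by 1.08. The smallest change was that of Stard4, a cholesterol carrier (-0.49). In the scaling to the 75th percentile 25 of the 26 were called lower.

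Against T1, 2 of the 26 differed, in opposite directions. Cyp51, a sterol demethylase, lay at 12.01 to 12.27 in T1_NPC and at 11.38 to 11.74 in T1 (difference 0.61, adjusted p = 0.0046), still below the 13.18 to 13.55 of T0. Tm7sf2, at 11.85, 11.01, 11.82 and 12.63 in T1_NPC, differed from T1 by -0.76 (adjusted p = 0.012). Both calls held without T1_NPC replicate 2 (0.60 and -0.49).

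**Figure D3:**
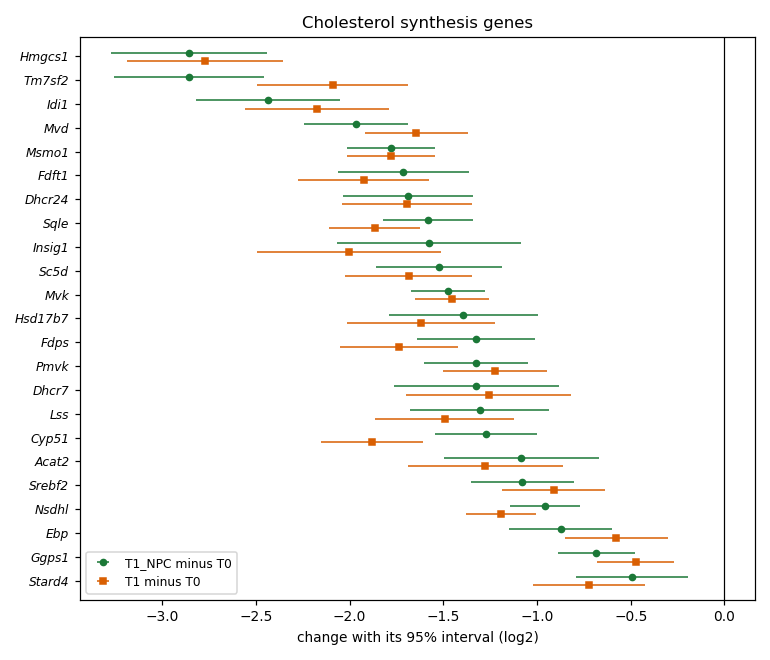
Log2 change from T0 with its 95% interval for 23 of the 26 cholesterol synthesis genes, T1_NPC minus T0 (green circles) and T1 minus T0 (orange squares, same T0 arrays). All T1_NPC values drawn are below 0, from -2.86 for Hmgcs1 to -0.49 for Stard4.

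The promoters of the 3 genes of this list with the largest falls are shown because each holds the CCAAT box, the motif of the factor NF-Y, which works with SREBP at sterol genes. CCAAT was searched on both strands, and each match reads here as its reverse complement, in capitals. Each stretch is the 250 bases before the RefSeq start on assembly GRCr8, written on the strand of the gene. They are chr2:53382054-53382303 (plus strand) for Hmgcs1, chr1:212789542-212789791 (minus strand) for Tm7sf2 and chr17:66547525-66547774 (minus strand) for Idi1.

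Hmgcs1: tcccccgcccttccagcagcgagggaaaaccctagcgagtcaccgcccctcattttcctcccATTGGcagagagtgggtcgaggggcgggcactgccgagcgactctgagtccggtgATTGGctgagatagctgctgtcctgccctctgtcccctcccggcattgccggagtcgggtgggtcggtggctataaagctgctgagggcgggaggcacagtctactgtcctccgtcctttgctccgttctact

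Tm7sf2: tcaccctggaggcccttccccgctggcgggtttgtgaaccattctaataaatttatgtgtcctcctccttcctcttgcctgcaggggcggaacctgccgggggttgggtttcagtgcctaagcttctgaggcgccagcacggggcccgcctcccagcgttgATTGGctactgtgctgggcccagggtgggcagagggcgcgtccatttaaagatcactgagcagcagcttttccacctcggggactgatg

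Idi1: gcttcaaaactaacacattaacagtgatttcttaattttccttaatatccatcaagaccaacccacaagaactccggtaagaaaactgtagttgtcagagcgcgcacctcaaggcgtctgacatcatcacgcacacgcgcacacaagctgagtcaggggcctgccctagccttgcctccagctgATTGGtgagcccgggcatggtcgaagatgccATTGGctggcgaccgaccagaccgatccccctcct

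Of the 18 cholesterol genes with a promoter in the table, 15 (83.3%) held a CCAAT box, against 11385 (34%) of the 33469 promoters. Acat2, Cyp51 and Dhcr7 held none in this window. Hmgcs1 and Idi1 each held 2 boxes and Tm7sf2 held 1.

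Of 20 genes for fatty acid and myelin lipid synthesis, 14 were lower and 1 was higher (median -0.88; T1: 18 and 0, median -0.95). Scd, stearoyl-CoA desaturase, fell 7.24-fold (log2 -2.86, SE 0.22), from 12.93, 12.42, 13.11 and 12.09 to 9.76, 9.74, 9.53 and 10.09. A different feature, which the array itself names Scd, fell less, with changes of -0.90 to -0.71 in its 3 probes. Elovl6, an elongase, fell by 1.75 and Fasn, fatty acid synthase, fell by 1.32. Cers2, the ceramide synthase of very long chains, was the member that rose (0.72). Srebf1, the regulator of fatty acid genes, was not called (-0.10).

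Neuronal transcripts were lower after acute transplantation. Of 22 neuronal and neurofilament genes, 20 fell and none rose (median -1.30; T1: 21 and 0, median -1.55). Nrn1, neuritin, a secreted protein that promotes neurite growth, ranked second by fall among genes well above background on all 8 arrays, at 12.63, 11.87, 12.43 and 11.64 in T0 and 8.58, 9.15, 8.90 and 8.87 in T1_NPC (log2 -3.27, SE 0.39, adjusted p = 2.4e-07). Nefh, the heavy neurofilament, fell 4.02-fold (log2 -2.01) and Rbfox3, the nuclear antigen NeuN, fell by 1.46. Gap43, which neurons raise when axons grow, and Eno2 did not pass the test (-0.11 and -0.57), though Eno2 was called lower without T1_NPC replicate 2 (-0.77, adjusted p = 0.025). No neuronal gene differed from T1 by the test. For 15 of the 22 the 95% interval of that difference lay within 1 log2 unit of 0, against 65.7% of all features.

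The other largest falls were RGD1564500 (now Plscr5, of the scramblase family, 9.62-fold), Lin7b (a synaptic scaffold, -3.07), Slc7a10 (a transporter of small neutral amino acids, -3.02), Gjd2 (connexin 36 of electrical synapses, -3.00), Pln (phospholamban, -2.95), Chodl (chondrolectin, a gene of fast motor neurons, -2.91) and Hcrtr2 (an orexin receptor, -2.87). Slc35f4 (-2.87), Grifin (-2.87), Acbd7 (-2.86) and Hmgcs1 completed the 12. Pln was the 1 of the 12 that differed from T1 by the test (-1.22, adjusted p = 0.0084), with 5.06, 6.58, 5.90 and 4.95 in T1_NPC against 6.67 to 7.08.

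Of 12 genes used for motor neurons, 5 fell and 4 rose (T1: 5 and 4), beside 29.9% and 22.8% of all features. Slc5a7, the choline transporter, fell by 1.48 and Isl1, a motor neuron transcription factor, fell by 1.05, whereas Chat, the enzyme that makes acetylcholine, was not called (-0.41). The rises were Calca, Calcb, Spp1 and Mmp9, and the last 2 are also made by macrophages. Among 27 genes of interneurons and neuropeptides, 18 fell and none rose (median -0.96; T1: 21 and 0). Pvalb, parvalbumin, fell by 2.41, Slc17a6, the glutamate transporter VGLUT2, fell by 1.83, Slc6a5, the glycine transporter GlyT2, fell by 1.82 and Gad2, an enzyme of GABA synthesis, fell by 1.73. Pax2, a transcription factor of inhibitory interneurons, fell by 0.80 and was the 1 member below T1 (-0.84).

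Synaptic vesicle genes had the lowest median of the lists (-1.54; T1: -1.51), with 18 of 23 lower and none higher (T1: 20 and 0). Snap25, a membrane fusion protein, stood at 15.32, 14.93, 15.07 and 15.02 in T0, at 13.19, 12.47, 13.35 and 12.06 in T1 and at 12.78, 14.36, 13.38 and 13.13 in T1_NPC. It fell 3.19-fold (log2 -1.68, SE 0.40, adjusted p = 0.0013), with replicate 2 nearest to T0, and by 1.99 without it. Pclo, a scaffold of the active zone, fell by 2.28 and Syt1, the calcium sensor of release, fell by 1.83. Unc13a, a priming factor, was 0.62 below T1 (log2 difference -0.62), which was not called without T1_NPC replicate 2.

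Ion channels and receptors followed the same direction. Of 25 sodium and calcium channel genes, 19 fell and none rose (median -1.0), of 32 potassium channel genes 22 fell and 3 rose (median -1.15), and of 33 glutamate, GABA and glycine receptor genes 28 fell and none rose (median -1.49). In T1 these counts were 21 and 0, 24 and 2, and 29 and 0. Scn1a, the sodium channel Nav1.1, fell by 2.16, Kcna2, a channel of myelinated axons, fell by 2.13 and Grin2a, an NMDA receptor subunit, fell 4.87-fold (log2 -2.28). The 3 potassium channels that rose were Kcnn4 (4.38), Kcnmb4 (1.12) and Kcna3 (0.83), of which Kcnn4 and Kcna3 are known from immune cells. Without T1_NPC replicate 2 the rise of Kcnmb4 was 0.58 (adjusted p = 0.049).

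Of 41 cAMP signalling genes, 20 fell and 6 rose (median -0.41; T1: 21 and 5, median -0.52). Rapgef4, which encodes EPAC2, had the largest fall, from 8.42, 8.12, 7.95 and 7.97 in T0 to 5.71, 6.70, 5.36 and 5.88 in T1_NPC, with T1 at 6.15, 5.84, 6.64 and 5.68. The fall was 4.61-fold (log2 -2.20, SE 0.27, adjusted p = 4.0e-07), no T1_NPC array reached the T0 range, and the difference from T1 was -0.16 (95% interval -0.72 to 0.40, adjusted p = 0.76). Rapgef3, which encodes EPAC1, was not called (0.13).

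The adenylate cyclases went different ways. Adcy8, Adcy5 and Adcy2 fell by 2.00, 1.77 and 1.43, Adcy9 fell by 0.87 and Adcy1, below background on all T1_NPC arrays, was at least 1.70-fold lower. Adcy4 rose by 2.70 (SE 0.43), at 10.39, 7.44, 9.67 and 10.38 in T1_NPC against 6.23 to 7.50 in T0, and by 3.38 without replicate 2, the array that overlapped T0. Adcy7, a cyclase of blood cells, rose by 1.94 and lay above T1 by 0.64 (adjusted p = 0.023), at 8.40 to 8.79 against 7.38 to 8.30. Adcy3 and Adcy6 were not called against T0, and Adcy3 was 0.67 above T1 (adjusted p = 0.034, or adjusted p = 0.14 without T1_NPC replicate 2).

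Of the kinase A genes, Prkaca and Prkacb, the catalytic subunits, fell by 0.80 and 1.1 and Prkar1b, a neuronal regulatory subunit, fell by 1.11, whereas Prkar1a, Prkar2a and Prkar2b were not called. Camk4, a calcium-dependent kinase of neurons, fell by 2.05 and Camkk2, which activates it, fell by 0.96. Creb1, the transcription factor these kinases phosphorylate, rose by 0.57 (SE 0.12, adjusted p = 0.00027), and Rap1b rose by 0.96 while Rap1a fell by 0.85. Ppp1ca, a phosphatase subunit, and Map2k1, the kinase MEK1, rose by 0.86 and 0.76 and were above T1 by 0.28 and 0.59, the second of which was lost without T1_NPC replicate 2 (adjusted p = 0.083). Bdnf, a growth factor target of the pathway, was not called (-0.68, adjusted p = 0.073), but was called without T1_NPC replicate 2 (-0.85, adjusted p = 0.037). With only the T0 arrays of the first scan session, 13 of the 41 were called lower.

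**Figure D4:**
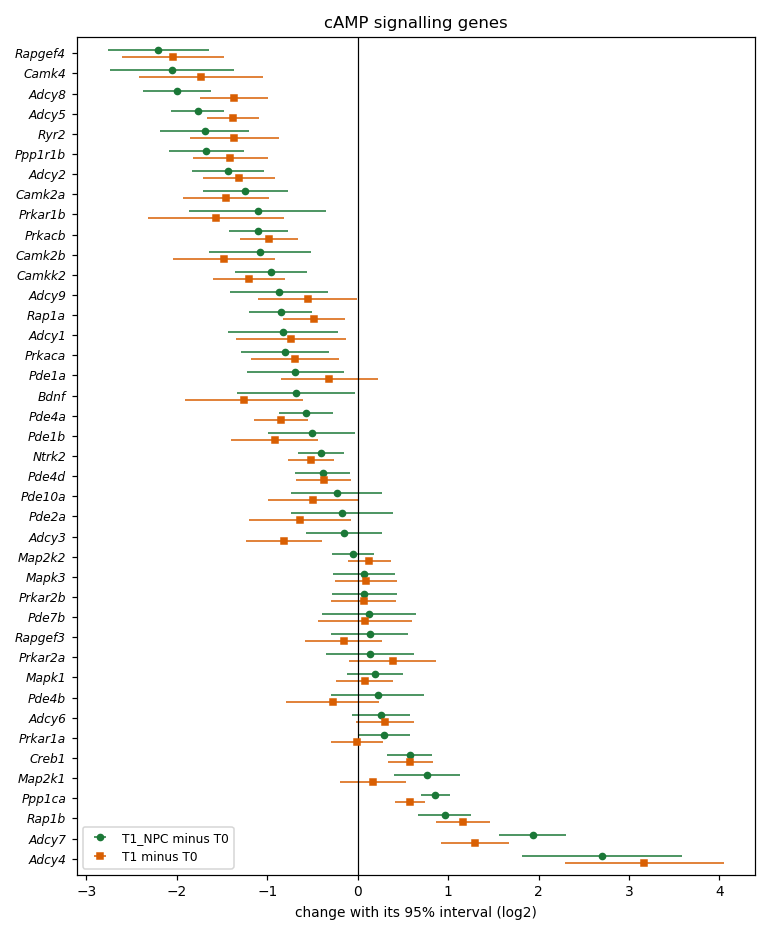
Log2 change from T0 with its 95% interval for 41 cAMP signalling genes, T1_NPC minus T0 (green circles) and T1 minus T0 (orange squares, same T0 arrays). The largest fall was Rapgef4 (EPAC2, -2.20) and the largest rise Adcy4 (2.70).

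JAK/STAT genes, which carry signals of cytokines such as interleukin 6, rose in 15 of 19 cases and none fell (median 1.33; T1: 15 and 1, median 0.82). Stat6 rose by 3.34 and Stat3, the transcription factor of reactive astrocytes, by 1.33. Socs3, an inhibitor that STAT3 induces, stood at 5.79, 6.02, 5.95 and 6.18 in T0, at 7.08, 7.30, 6.89 and 6.98 in T1 and at 7.79, 8.43, 8.14 and 7.60 in T1_NPC. The 3 groups did not overlap, the rise from T0 was 2.01 (SE 0.17, adjusted p = 1.0e-09) and the difference from T1 was 0.93 (SE 0.17, adjusted p = 0.00095). Socs1, a related inhibitor, was likewise above T1 (0.82, adjusted p = 0.0012), and both held without T1_NPC replicate 2 (0.78 and 0.72). The receptor genes Il6st, Lifr and Osmr were also called above T1 (0.66, 0.63 and 0.58), and all 3 calls were lost without that array.

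Immediate early genes, which cells raise within minutes of a stimulus, were higher in 15 of 23 cases and lower in 2 (median 0.82; T1: 11 and 2, median 0.55), and 6 were above T1, or 4 without T1_NPC replicate 2. Junb, a subunit of the transcription factor AP-1, stood at 7.30, 6.68, 7.58 and 7.19 in T0, at 10.16, 9.36, 9.03 and 9.22 in T1 and between 10.79 and 11.23 in T1_NPC. It rose 13.8-fold (log2 3.79, SE 0.26) and lay above T1 by 1.53 (adjusted p = 0.00047; 1.45 without replicate 2). Fos rose by 2.31 and was above T1 by 1.07 (adjusted p = 0.00072), and Btg2, an antiproliferative gene, was above T1 by 0.98 (0.68 without replicate 2, adjusted p = 0.0067). Dusp1, a phosphatase of MAP kinases, was above T1 by 1.51, with 11.74 in replicate 2 and 9.16 to 10.04 on the other arrays, and was not called without it (0.96, adjusted p = 0.11). Arc and Egr4, immediate early genes of neuronal activity, fell by 2.41 and 2.31. How long the cords lay between perfusion and freezing is not given in the sources used here, and its part in these genes was not tested.

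Among 31 neurotrophic factors and receptors, 11 rose and 10 fell (T1: 10 and 10), beside 22.8% and 29.9% of all features. Igf1, insulin-like growth factor, rose by 2.85, Ngfr, the receptor p75, by 2.25, and Gdnf, a factor for motor neurons, rose by 1.25. Cntfr, the receptor of ciliary neurotrophic factor, was below background on all T1_NPC arrays, at 4.44, 3.70, 4.55 and 1.39, and at least 3.91-fold lower than in T0, and it was also called below T1 (-2.01, adjusted p = 0.0038). Of 26 genes of axon growth and its inhibition, 10 rose and 11 fell (T1: 8 and 10), beside the same percentages of all features. None of the 26 differed from T1 by the test. Atf3 and Sprr1a, genes of injured axons, rose by 4.52 and 3.28. The inhibitors and their receptors Lingo1, Rtn4r, Omg, Mag and Rtn4 fell by 1.36, 1.14, 1.13, 0.85 and 0.68.

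Endothelial and barrier genes moved in both directions, with 8 of 24 higher and 4 lower (T1: 9 and 4), beside 22.8% and 29.9% of all features. Icam1, the adhesion molecule for leukocytes, rose by 3.01 and Tie1 by 2.17. Abcb1a, an efflux pump of the blood-brain barrier, lay at 6.95, 6.55, 7.08 and 7.11 against 8.07 to 8.43 in T0 and 7.28 to 7.98 in T1, below both by the test (-1.32 and -0.66, the latter at adjusted p = 0.0082). Slco1c1, a barrier transporter of thyroid hormone, fell by 2.11 and was below T1 by the test only with replicate 2 included (-0.91, adjusted p = 0.047, or adjusted p = 0.16 without it).

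Of 31 respiratory chain genes, 24 fell and 1 rose, by small amounts (median -0.51), with Ndufs4 lowest (-1.1). Glycolysis genes split, 8 of 25 up and 7 down, beside 22.8% and 29.9% of all features. The sign of their median (0.09) turned in the scaling to the 75th percentile (-0.14). Slc16a3, a lactate exporter, rose by 3.18 and Ldha, lactate dehydrogenase A, by 2.63, which was 0.58 above T1 with T1_NPC replicate 2 and not called without it. Skeletal muscle genes, listed as a sign of tissue around the cord, were higher in 5 of 20 cases and lower in 8, with a mean list level of 7.05 to 7.39 in T0 and 6.87 to 6.93 in T1_NPC. Acta1 rose by 1.29 and Ckm was not called. Without T1_NPC replicate 2, 6 of the 20 muscle genes were higher and 8 lower. Among them, Mybpc2 and Des rose by 2.02 and 1.55, and the myosin genes Myh7 and Myh2 fell by 2.12 and 1.56. Red blood cell genes were higher in 2 of 8 cases and lower in 2, with mean list levels of 7.98 to 8.54 and 8.03 to 8.55. The counts of both lists stand beside the same 22.8% and 29.9% of all features. The part of either tissue in the results was not tested.

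The genes in which T1_NPC lay farthest above T1 were also above T0. Gpr44 (now Ptgdr2, a prostaglandin D2 receptor) stood at 6.28, 6.49, 7.02 and 6.48 in T0, at 5.20, 6.27, 7.29 and 6.26 in T1 and at 8.60, 9.47, 8.35 and 8.58 in T1_NPC (difference from T1 2.49, SE 0.62, adjusted p = 0.011). RGD1564535 (now Rnf224) was above T1 by 1.87 and RGD1359349 (now Tmem252) by 1.75, the latter at 11.12 in replicate 2 and 7.79 to 8.65 on the other arrays, or by 0.99 without replicate 2. The olfactory receptor genes Olr233, Olr232 and Olr229 (now of the Or2d family) were above T1 by 1.80, 1.79 and 1.73. These 3 are near-identical copies whose probes may share transcripts, so they count as 1 uncertain result, and the first 2 lost their calls without replicate 2 (adjusted p = 0.098 and 0.076).

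The genes farthest below T1 included Notch3, a receptor of pericytes and smooth muscle that progenitors also carry. It stood at 14.65, 14.73, 15.45 and 14.70 in T0, at 15.66, 15.57, 15.47 and 15.39 in T1 and at 13.89, 9.90, 13.53 and 13.48 in T1_NPC. All transplanted arrays lay below both other groups, the difference from T1 was -2.82 (adjusted p = 0.00082), and it was -1.89 without replicate 2. Grin2d, an NMDA receptor subunit, was below T1 by 2.56 (log2 -2.56) and was not called against T0. Fam184b (-2.11) and Sgca, a sarcoglycan of muscle (-2.0), were below both T0 and T1, as was RGD1560017 (now Rpl17-ps17, a ribosomal protein pseudogene whose signal may come from its parent gene, -2.02). Tnfsf4, the co-stimulatory ligand OX40L, lay at 4.99 in replicate 2 and at 9.19 to 9.67 on the other T1_NPC arrays, and its difference from T1 was -2.05, or -0.96 without replicate 2, when it was also called above T0 (1.49).

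In 206 named features well above background in T0, T1 and T1_NPC, T1 differed from T0, T1_NPC differed from T1, and the 95% interval of T1_NPC minus T0 lay within 0.75 of 0. The 8 with the largest change in T1 are named here, and the direction follows from how they were chosen. Tnnt1, slow skeletal troponin T, stood at 7.32 to 7.68 in T0, at 8.85 to 9.24 in T1 and at 8.28, 7.07, 7.80 and 7.12 in T1_NPC (T1_NPC minus T0 0.06, T1_NPC minus T1 -1.49). Slc31a1, the copper importer, stood at 9.17 to 9.34, 10.09 to 10.59 and 8.73 to 9.49 in the same order. Kcnj5 (a potassium channel), P2ry12, Pde3b (a phosphodiesterase), Rassf6, Tdrd5 and Jam3 (a junction molecule) met the same rule, with differences from T1 of -1.23, -1.06, -1.17, 1.23, 1.04 and 0.68.

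For several of these 8 the T0-like mean came from T1_NPC replicate 2. P2ry12 stood at 13.41, 11.25, 13.31 and 13.68 in T1_NPC, against 12.60 to 13.07 in T0 and 13.69 to 14.15 in T1. Without replicate 2 it was called above T0 (0.61) and was still called below T1 (-0.51). Kcnj5 was likewise called above T0 without that array (0.55) and Jam3 below it (-0.50), and Tdrd5 lost its call against T1 (0.78, adjusted p = 0.10).

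**Figure D5:**
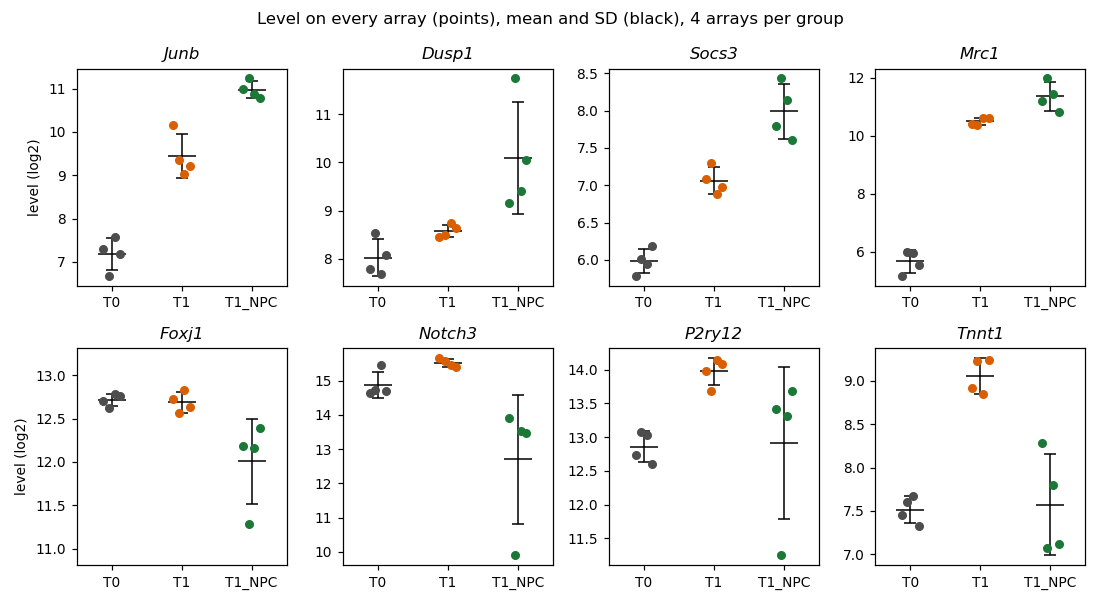
Log2 levels of 8 genes called between T1_NPC and T1 on each T0, T1 and T1_NPC array (points), with the group mean and SD (black, n = 4 per group); each panel has its own axis, which does not start at 0. Junb and Socs3 of T1_NPC lay above all T1 arrays, Notch3 and Foxj1 below them, and replicate 2 was the low point for Notch3 and P2ry12 and the high point for Dusp1 and Mrc1.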

How the data were processed

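RNA of 28 rat spinal cords in 7 groups of 4 was hybridised in a single dye to whole-genome arrays. The authors extracted scanner intensity values with Agilent Feature Extraction 10.7.1.1, subtracted background and normalized by quantile, and deposited the resulting log2 values as a table, which was used here. The submitters' processing notes name build rn4. The scanner intensities, as deposited, gave spots well above background, slide and scan session, each through the output whose rank order matched a column. Every column of the table had a sample.

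Control spots were left out, and spots of a probe and probes of a gene were averaged. Gene names came from RefSeq by accession, symbol or synonym (16016 features), and 7 listed genes came through the array's own descriptions. Of 885 listed genes 855 were found. limma 3.58.1 in R 4.3.3 fitted all 28 arrays with 1 mean per group (residual degrees of freedom 21), and adjusted p-values (Benjamini-Hochberg) below 0.05 were called. Intervals are 95%. Where a probe was not well above background on any array of a group, the fold is a bound against the lowest measured signal. On simulated data with 200 changed features of 35469, 85% of changes of 2 and 55% of changes of 1 log2 unit were called for T1_NPC against T0, and 6.04% of calls were false. The simulation had independent normal errors and far fewer changed features than the 52.7% called here, so its rates need not hold for these data.

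The genes named by rule were, among named features, the 12 largest called rises and 12 largest called falls well above background on all 8 arrays, the 12 largest bounds from below background, the 6 called farthest above and the 6 farthest below T1, and the 8 near T0 with the largest change in T1. Others are members of 39 lists. Members and lists were chosen with earlier results of these data known. Alternatives were other sets of samples in the fit, scanner outputs normalized by quantile or to the 75th percentile or corrected by normexp (offset 50, on median signals, because mean signals are not in every output), scanner outputs under their deposited samples, single or brightest probes, a filter on dim probes, a robust trend, slide as a random block, T0 of 1 session, a 2-fold minimum, the replicate number as a block and leaving out each array. Promoters came from RefSeq (GRCr8). Tables and figures used Python 3.11.15, pandas 2.3.3 and matplotlib 3.10.9. Results for some listed or ranked genes are not reported here.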

Additional observations from a re-analysis of the deposited data

Results flagged for a closer look

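In 12 of 116 groups of 4 arrays examined, 1 array lay far from the other 3. The groups covered the genes named by rule and measures of whole arrays, in T0 and T1_NPC. The nominal rate is about 1 in 20, but the genes were chosen from these same values and share the same arrays. The count was therefore not set against chance. The measure is the gap to the nearest array over the range of the group. Of the 12, 8 were in T1_NPC, 6 of them through replicate 2, and 4 in T0. In T1_NPC, replicate 2 was the lowest for Cd68 (15.88 against 16.43 to 16.49, gap over range 0.891), Msln (10.03 against 11.84 to 12.01, 0.915), Cd300le (9.03 against 11.35 to 11.69, 0.870), Notch3 (9.90 against 13.48 to 13.89, 0.897), Tnfsf4 (4.99 against 9.19 to 9.67, 0.897) and P2ry12 (11.25 against 13.31 to 13.68, 0.846). Replicate 4 was the highest for Hmgcs1 (12.07 against 11.44 to 11.53, 0.855) and replicate 1 for Msr1 (12.46 against 11.01 to 11.07, 0.963).

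In T0, the array apart was replicate 2 for Msr1 (3.88 against 1.45 to 1.61, 0.934), replicate 3 for Lilrb4 (3.40 against 1.31 to 1.45, 0.931), replicate 3 for Notch3 (15.45 against 14.65 to 14.73, 0.903) and replicate 1 for Tnfsf4 (8.39 against 7.66 to 7.70, 0.944). Msr1 and Lilrb4 were not well above background on any T0 array.

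The change from T0 differed with and without transplantation, by limma's test of T1_NPC against T1, for 20 genes named by rule, which were chosen by that test. The log2 difference was higher with transplantation for Gpr44 (2.49), RGD1564535 (1.87), Olr233 (1.80), Olr232 (1.79), RGD1359349 (1.75), Olr229 (1.73), Rassf6 (1.23), Tdrd5 (1.04) and Jam3 (0.68). It was lower for Notch3 (-2.82), Grin2d (-2.56), Fam184b (-2.11), Tnfsf4 (-2.05), RGD1560017 (-2.02), Sgca (-2.0), Tnnt1 (-1.49), Slc31a1 (-1.31), Kcnj5 (-1.23), Pde3b (-1.17) and P2ry12 (-1.06). The T1_NPC arrays shared 1 slide and scan session with no T1 array, so these cannot be told apart from transplantation.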

How the results depend on the processing

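Between T1_NPC and T0, the 18681 calls became 15100 to 21945 under every alternative run but 2. The 21945 were calls among 41012 single probes, and the filter on dim probes tested 26933 features (17252 called), where the other settings tested 35469. With scanner outputs under their deposited samples there were 0 called, 0 higher and 0 lower, and with a minimum of 2-fold 9630 called, 4423 higher and 5207 lower. Leaving out each array gave 17158 to 18736 calls, 7399 to 8120 higher and 9759 to 10616 lower. Between T1_NPC and T1, the 4225 calls became 1223 with only the arrays of both groups, 1958 with T0, T1 and T1_NPC arrays, 7397 with scaling to the 75th percentile, 2236 with slide as a random block, 1568 with a minimum of 2-fold and 0 with outputs under their deposited samples, and 2890 to 4713 with each array left out. With the replicate block, calls were 18384 against T0 and 3834 against T1. Deviations of same-numbered arrays correlated at -0.030 to 0.065 between T0 and T1_NPC and at -0.133 to 0.123 between T1 and T1_NPC, not above 0.1 in every pair, so the numbers were not taken to pair the samples.

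Under the deposited samples the difference from T1 reversed for 16 genes named by rule: RGD1359349 (-0.037), Olr229 (-0.14), Notch3 (0.43), Grin2d (1.21), Fam184b (1.03), Tnfsf4 (0.82), RGD1560017 (0.90), Sgca (0.61), Tnnt1 (0.53), Kcnj5 (0.30), Slc31a1 (0.45), Rassf6 (-0.42), P2ry12 (0.32), Tdrd5 (-0.26), Pde3b (0.14) and Jam3 (-0.063), and the other 40 lost their calls. The cause was not tested. All 56 kept direction and call with quantile normalization or the 75th percentile, brightest or single probes, the dim-probe filter, the robust trend and the replicate block. Calls against T1 were lost by 9 genes with only the arrays of the groups compared, by 6 with T0, T1 and T1_NPC arrays, by 6 with slide as a random block, by 2 with normexp and by 1 with a minimum of 2-fold. Leaving out 1 array ended calls against T1, in each case with the direction kept. Without T1_NPC replicate 2 these were Olr232, Olr233 and Tdrd5, without T1_NPC replicate 3 Tdrd5 (1.0, adjusted p = 0.050), and without 1 or another T1 array Olr232 (1.63 to 1.76), Olr233 (1.64 to 1.76), Tnfsf4 (-1.95), P2ry12 (-1.06 to -1.0) and Tdrd5 (0.99 to 1.0), with adjusted p from 0.054 to 0.088. The median of the neurotrophic list (0.28) was -0.07 with the brightest probes. Features below background on an array have no order there.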
